A study of Mus musculus with 6 samples.

Results

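Aldh1a3, Pramel4, Mmp14, Wdcp, Slc22a17, Matn2, Vmn2r3, Spata31d1a, Olfr889 and Zfp873 are 10 of the 35261 genes to which transcripts were summed, and each assigns most of its reads to a transcript that carries a B2 repeat in sense orientation. They were chosen because their summed reads were lower after palmitate, because most of them are known from tissues other than lymphocytes, and because of the repeat. The falls below therefore describe how they were selected and are given with no test. Palmitate is a saturated fatty acid. The tested cells were wild-type mouse CD8+ T cells taken from pancreas, spleen and lymph nodes and held in T cell medium with 100 µM palmitate for 48 h, with 3 libraries. The 3 control libraries were from wild-type CD8+ T cells without that addition, also at 48 h. The mice's strain, age and sex, the vehicle of the controls, any activation of the cells and the number of mice behind each library are not given in the sources used here, so spread between libraries may be technical. The libraries came from a SMARTER mRNA-Seq kit, and whether strand was used in counting is likewise not given.

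B2 is a short interspersed element of rodents, a mobile repeat that descends from a transfer RNA gene and is present in very many copies in the mouse genome. A free B2 copy is transcribed by RNA polymerase III from 2 internal promoter stretches, the A box and the B box, and B2 RNA is known to rise after heat shock and to bind RNA polymerase II. A copy that lies inside a gene's last exon is instead carried along in the messenger RNA made by RNA polymerase II, where the A-rich tail of the repeat can hold the polyadenylation signal AATAAA. Genes that share such a copy share sequence, so a short read from one copy can fit transcripts of many genes.

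A B2 sequence was rebuilt from the reference transcripts and is shown because every match below is a match to it. It is 151 bases long, is written 5′ to 3′, and has the A box and then the B box in capitals. Among 240 loci with the most common distance between the boxes, an average of 81.1% carried the printed base.
rebuilt B2: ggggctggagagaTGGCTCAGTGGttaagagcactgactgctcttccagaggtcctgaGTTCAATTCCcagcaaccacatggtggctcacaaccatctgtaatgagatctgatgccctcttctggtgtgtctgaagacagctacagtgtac

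The stretch that starts at the A box is shown for the main transcript of each gene, since the genes share little else. All sequences of the 10 genes are from the GENCODE M21 transcripts, 5′ to 3′, with the bases in the place of the A box in capitals.
Aldh1a3: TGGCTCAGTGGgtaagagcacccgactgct
Mmp14: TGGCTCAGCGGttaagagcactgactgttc
Matn2: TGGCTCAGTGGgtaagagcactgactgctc
Slc22a17: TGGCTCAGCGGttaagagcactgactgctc
Olfr889: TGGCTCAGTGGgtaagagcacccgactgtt
Vmn2r3: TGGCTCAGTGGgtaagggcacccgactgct
Spata31d1a: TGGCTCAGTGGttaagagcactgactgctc
Pramel4: TATATCAGTGGgtaggaacacccgactgct
Wdcp: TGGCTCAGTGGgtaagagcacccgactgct
Zfp873: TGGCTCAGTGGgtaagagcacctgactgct
The A box letters TGGCNNAGNGG were kept in 9 of the 10, and Pramel4 differed from the rebuilt B2 at 3 of its A box bases. The B box letters GTTCNANNCC were kept in 8 of the 10, all but Olfr889 and Zfp873, which each differed from the rebuilt B2 at 2 bases of that box. Both boxes were kept in 7. Motifs were read on the transcript's own strand, and the boxes do not overlap each other. Of all 114808 transcripts searched, 0.52% held both boxes at a distance of 20 to 70 bases, against 37.5% of the transcripts with a sense match. The B2 was rebuilt from loci that hold both boxes, so a higher share among its matches follows from how they were found. A kept box is a likeness of letters and says nothing of whether RNA polymerase III uses it.

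Spata31d1a carried the match closest to the rebuilt B2, at 97.4% identity over 151 bases, and Mmp14 followed at 94.7%. The matches in Matn2, Vmn2r3, Aldh1a3, Olfr889, Slc22a17, Wdcp and Zfp873 lay between 88.2% and 91.3% identity. Pramel4 had the most diverged copy, at 81.5%, just above the 80% that a match had to reach over at least 80 bases. The matched stretch covered 146 to 152 bases of the transcript.

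The B2 stretch was in the last exon of 9 of the 10 main transcripts, and in exon 3 of 6 in Vmn2r3. It ended within 50 bases of the transcript's 3′ end in 5 of them, with 18 bases after it in Spata31d1a, 24 in Zfp873, 30 in Mmp14, 30 in Slc22a17 and 38 in Aldh1a3. In the other genes more sequence followed, with 653 bases in Pramel4, 818 in Wdcp, 1916 in Matn2, 3467 in Olfr889 and 5276 in Vmn2r3. Where a coding sequence is annotated (Aldh1a3, Pramel4, Mmp14, Wdcp, Matn2, Spata31d1a and Olfr889), the B2 stretch lay after it. The main transcripts of Slc22a17 and Vmn2r3 are annotated as retained introns and that of Zfp873 as a processed transcript, with no coding sequence. That of Pramel4 is annotated as nonsense-mediated decay rather than as protein coding. Among all 1418 transcripts with a sense match, 27.2% had it within 50 bases of the end.

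The last 30 bases of the 5 transcripts that end soon after the repeat are shown for the polyadenylation signal, with AATAAA in capitals, also where its copies overlap.
Spata31d1a: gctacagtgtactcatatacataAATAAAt
Zfp873: gtgtacttacatattaaaaaaaaaaaaaaa
Mmp14: tcatatacataaAATAAAcaaatctttaag
Slc22a17: ttatatataaAATAAAtAATAAATAAAtct
Aldh1a3: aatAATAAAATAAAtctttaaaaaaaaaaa
AATAAA, read on the transcript's strand, stood in the last 50 bases of 7 of the 10 main transcripts, all but Matn2, Vmn2r3 and Zfp873. The share was 27.6% of all transcripts searched and 55.6% of those with a sense match. The letters are a description of the annotated ends and do not show where the RNA of these cells ended.

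**Figure D1:**
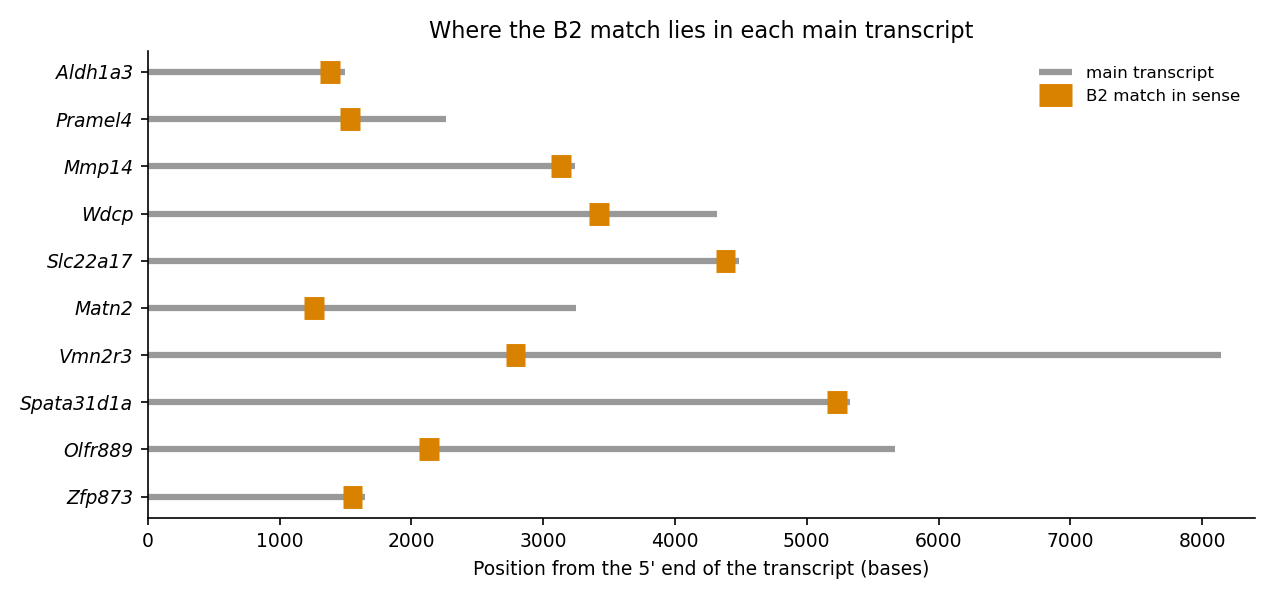
Main transcript of each of the 10 genes drawn to scale in bases from its 5′ end (grey), with the B2 match in sense in orange. In Aldh1a3, Mmp14, Slc22a17, Spata31d1a and Zfp873 the match ends 18 to 38 bases from the 3′ end, whereas in Vmn2r3 5276 bases follow it.

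The depth of the transcript tables was 18404832 to 27428570 reads in palmitate libraries and 28599087 to 32321905 reads in control libraries. CD8 T cell identity was checked with 9 markers (Cd3d, Cd3e, Cd3g, Cd8a, Cd8b1, Trac, Lck, Cd2 and Cd5), whose counts per 1000000 reads (CPM, scaled by edgeR's TMM factors) summed to 2137 to 2377 in palmitate libraries and 1556 to 1860 in control libraries. By edgeR's quasi-likelihood test on the summed reads, with an adjusted p under 0.05 after Benjamini-Hochberg adjustment over 13082 genes, 7 of the 9 were higher with palmitate and 0 were lower, also at an unadjusted p under 0.05 and by DESeq2. That test called 1770 genes lower and 1599 higher with palmitate, or 13.5% and 12.2% of those tested. These are 3369 calls in all, against 5064 when libraries with the same number were paired as a replicate block. Scaled to the upper quartile instead, the split was 1318 lower and 1955 higher, with the median gene at a log2 fold change of 0.08 against 0.02.

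All 10 genes had fewer reads in every palmitate library than in any control library, and their log2 fold changes ran from −2.15 to −1.13, with a median of −1.34. Groups lay apart in this direction for 22.7% of all genes tested. All 10 were among the called genes, against 13.5% of all genes, and both counts follow from how the 10 were selected. As folds, the genes were 2.19 to 4.42 times lower with palmitate. Since these are bulk libraries, fewer cells that carry a transcript and less of it per cell cannot be told apart. Smallest among them were the falls of Wdcp and Spata31d1a, at −1.13 each. Of the other genes with a sense match in their main transcript, 51 fell at least as far, and the next one outside, Olfr71, also rounds to −1.13. The selected genes are thus a part of a longer run of such genes, with no gap at its edge.

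Aldh1a3 (ENSMUSG00000015134, chromosome 7) encodes a retinaldehyde dehydrogenase that makes retinoic acid. It had 6.13, 12.3 and 8.83 CPM in palmitate libraries 1, 2 and 3, against 29.2, 47.9 and 44.3 CPM in control libraries 1, 2 and 3. The 3 palmitate values lay well under the lowest control value, although both groups varied by more than 1.5 times within themselves. The log2 fold change was −2.15, the furthest fall of the 10. Its reads went almost wholly to a transcript of 1496 bases with the B2 stretch at bases 1307 to 1458, which held 99.9% of them. The annotated transcript of 3443 bases without a B2 match held 3 reads over all 6 libraries together. The B2 stretch made up 10.2% of the main transcript, the largest part among the 10.

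Of the genes for proteins that act on or in the matrix around cells, Mmp14 (ENSMUSG00000000957, chromosome 14) encodes a membrane-anchored collagenase that also activates other metalloproteinases. It had 12.5, 15.0 and 13.6 CPM with palmitate, against 35.0, 36.3 and 35.4 CPM in controls. These were among the tightest replicates of the set, at 13.7 ± 1.26 CPM and 35.6 ± 0.635 CPM (SD, n = 3 each), and the log2 fold change was −1.37. Its transcript of 3238 bases, with the B2 stretch at 3061 to 3208, took 99.5% of the reads. The other 6 transcripts summed to 22.2 reads in all libraries, so a change in them could not be seen at this depth.

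Matn2 (ENSMUSG00000022324, chromosome 15) encodes matrilin 2, an adaptor protein of the extracellular matrix. It had 9.83, 12.3 and 8.94 CPM with palmitate, against 22.3, 30.5 and 24.3 CPM in controls, and a log2 fold change of −1.30. Here palmitate library 3 rather than 1 was the lowest. A transcript of 3252 bases with the B2 stretch at 1187 to 1336 held 98.1% of the reads. The 5 transcripts without the repeat held 58.1 reads together, with 4.83 to 13.1 per palmitate library and 6.02 to 16.1 per control library, which overlap.

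Slc22a17 (ENSMUSG00000022199, chromosome 14) encodes a receptor for lipocalin 2, a protein that binds iron carriers. Its CPM were 13.0, 20.2 and 14.8 with palmitate and 39.4, 47.9 and 48.2 in controls. The groups were apart, with a log2 fold change of −1.49. Of its 12 transcripts, the retained intron of 4488 bases that holds the B2 stretch (4309 to 4458) had 99.9% of the reads. The 4 other transcripts annotated as protein coding had 0 reads in every library.

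Olfr889 and Vmn2r3 belong to families of receptors known from sensory neurons of the nose. Olfr889 (ENSMUSG00000096356, chromosome 9), an olfactory receptor, had 24.4, 37.1 and 33.0 CPM with palmitate, against 67.3, 84.0 and 84.3 CPM in controls, for a log2 fold change of −1.31. All of its reads were on a transcript of 5673 bases with the B2 stretch at 2055 to 2206, and its 945-base transcript was at 0. Vmn2r3 (ENSMUSG00000091572, chromosome 3), a vomeronasal receptor of type 2, had 7.08, 7.92 and 8.34 CPM with palmitate, against 14.8, 18.2 and 18.8 CPM in controls, for a log2 fold change of −1.15. Its retained intron of 8141 bases took 99.7% of the reads, and 7 of its other 8 transcripts were at 0. Vmn2r3 was the 1 gene in which palmitate library 3 was the highest of its group.

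Spata31d1a and Pramel4 belong to families known from the germ line. Spata31d1a (ENSMUSG00000050876, chromosome 13) had 16.4, 23.8 and 19.1 CPM with palmitate, against 38.7, 45.6 and 46.5 CPM in controls, for a log2 fold change of −1.13. Every read was on a transcript of 5325 bases with the B2 stretch near its end, at 5157 to 5307. Pramel4 (ENSMUSG00000073724, chromosome 4), of the leucine-rich PRAME-like family, had 3.99, 8.28 and 6.33 CPM with palmitate, against 17.2, 22.2 and 23.2 CPM in controls. Its palmitate libraries differed by over 2 times among themselves, and the log2 fold change was −1.74. Pramel4 is uncertain as a single gene: of the 31-base words of its main transcript outside the repeat, 94.6% also occur in transcripts of other genes, and all of its B2 stretch recurs in other transcripts of the gene. Only 2 words of its main transcript occur in neither other genes nor other transcripts of Pramel4. All Pramel4 reads were assigned to that transcript and 0 to those annotated as protein coding, a division that is an estimate.

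Wdcp and Zfp873 encode a protein with WD repeats and a coiled coil and a zinc finger protein. Wdcp (ENSMUSG00000051721, chromosome 12) had the most reads, with 52.6, 64.4 and 62.1 CPM with palmitate, against 120, 124.6 and 149.8 CPM in controls, and a log2 fold change of −1.13. Zfp873 (ENSMUSG00000061371, chromosome 10) had 12.4, 14.3 and 12.6 CPM with palmitate, against 33.9, 36.7 and 36.7 CPM in controls, and a log2 fold change of −1.44. In both genes the groups were apart, and both also had reads on transcripts without the repeat.

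**Figure D2:**
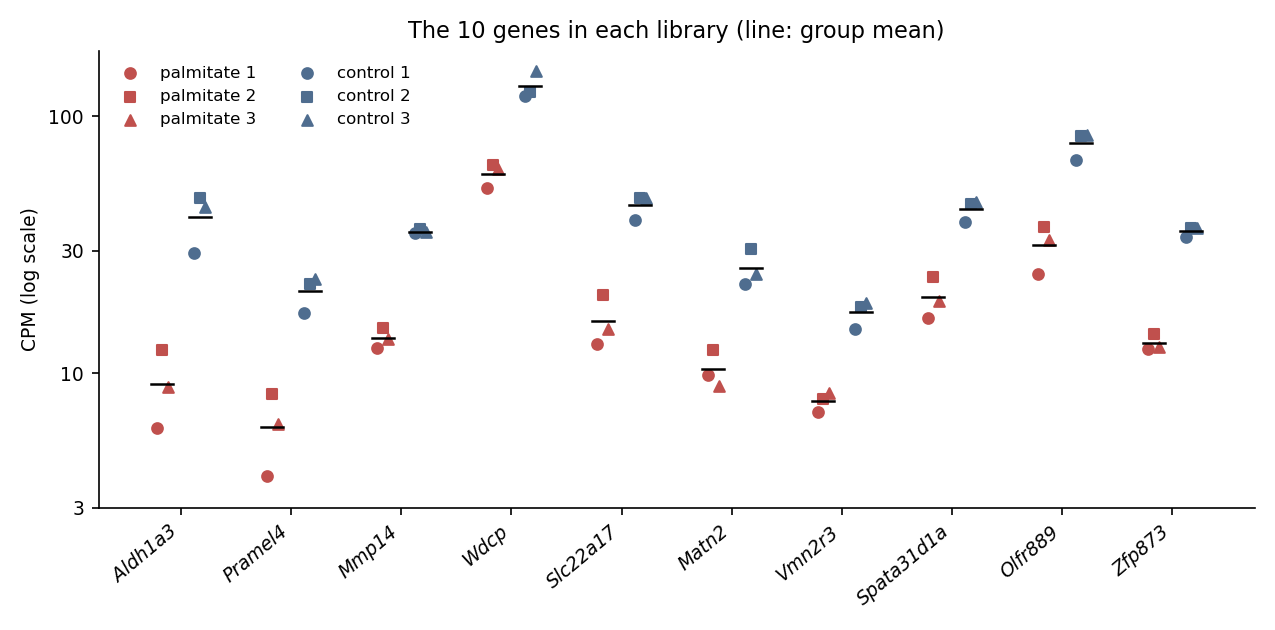
CPM of the 10 genes (log axis), palmitate libraries in red to the left and control libraries in blue to the right, with marker shapes for library number and lines for group means. In every gene the 3 palmitate points lie under the 3 control points, and control library 1 is the lowest control.

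The libraries kept nearly the same order from gene to gene. Palmitate library 2 was the highest of its group in 9 genes and palmitate library 1 the lowest in 9. Control library 1 was the lowest control in all 10 genes, and the highest was control library 3 in 7 and control library 2 in 3. The 10 genes together took 166, 222 and 187 reads per 1000000 reads of a library (RPM, with no TMM scaling) in palmitate libraries 1, 2 and 3, against 416, 471 and 486 RPM in control libraries 1, 2 and 3. The 1404 transcripts of other genes with a sense match ran in the same order, with 22902, 24401 and 23185 RPM in palmitate libraries and 28982, 30466 and 30873 RPM in control libraries. That difference had an exact two-sided permutation p of 0.1, the smallest that 3 against 3 libraries allow. The 1266 transcripts with only an antisense match took 12841, 12095 and 11962 RPM with palmitate and 12631, 12180 and 12215 RPM in controls, which overlap (exact permutation p = 0.8). What part this shared order has in the 10 genes' values was not tested, and how common the order is over all genes is not given here.

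Levels per length were compared on the deposited TPM of the main transcripts, a unit scaled by transcript length. With palmitate, Wdcp was highest at 17.9 ± 1.68 TPM, followed by Olfr889 at 9.14 ± 1.92, Aldh1a3 at 8.44 ± 2.74 and Zfp873 at 6.32 ± 0.941 (SD, n = 3 each). In controls, Wdcp had 39.1 ± 4.49 TPM and Aldh1a3 36.2 ± 8.68 TPM, neighbours that do not differ beyond their spread, ahead of Zfp873 at 25.8 ± 1.33 and Olfr889 at 21.4 ± 1.80. The lowest level in both groups was that of Vmn2r3, at 1.416 ± 0.0756 TPM with palmitate and 2.97 ± 0.242 TPM in controls. Aldh1a3 thus stood among the neighbours Olfr889 and Zfp873 with palmitate and beside Wdcp in controls.

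Repeat-bearing transcripts could be set against the others of the same gene in 2 of the 10, where both kinds had at least 120 reads over all libraries. Zfp873 showed the widest gap. Its main transcript of 1647 bases had 170, 240 and 136 reads in palmitate libraries, against 924, 904 and 998 reads in control libraries, a log2 fold change of −2.13. The coding transcript of 2360 bases without the repeat (ENSMUST00000210325) had 97.6, 132 and 92.0 reads in palmitate libraries, against 133, 88.1 and 118 reads in control libraries, a log2 fold change of 0.21. A second coding transcript without the repeat, of 2284 bases (ENSMUST00000209622), had 69.2, 18.2 and 0 reads with palmitate, against 8.93, 4.51 and 7.64 reads in controls, which overlap. All Zfp873 transcripts without the repeat together held 5.89 ± 0.711 RPM with palmitate and 3.99 ± 0.688 in controls (SD, n = 3 each), with every palmitate library above every control library. The repeat-bearing share of the gene's reads was 49.7%, 59.4% and 59.0% with palmitate, against 86.1%, 90.5% and 88.6% in controls.

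Wdcp's main transcript of 4317 bases had 1325, 1710 and 1066 reads in palmitate libraries, against 3603, 3233 and 4431 in control libraries, a log2 fold change of −1.20. Its processed transcript of 605 bases without the repeat (ENSMUST00000219069) had 106, 98.8 and 65.0 reads with palmitate, against 185, 154 and 163 in controls, a log2 fold change of −0.65. Both kinds were thus lower in Wdcp. The repeat-bearing share was 91.6%, 94.2% and 93.8% with palmitate, against 94.8%, 95.3% and 96.4% in controls, groups that are apart by under 1 percentage point at their edges.

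**Figure D3:**
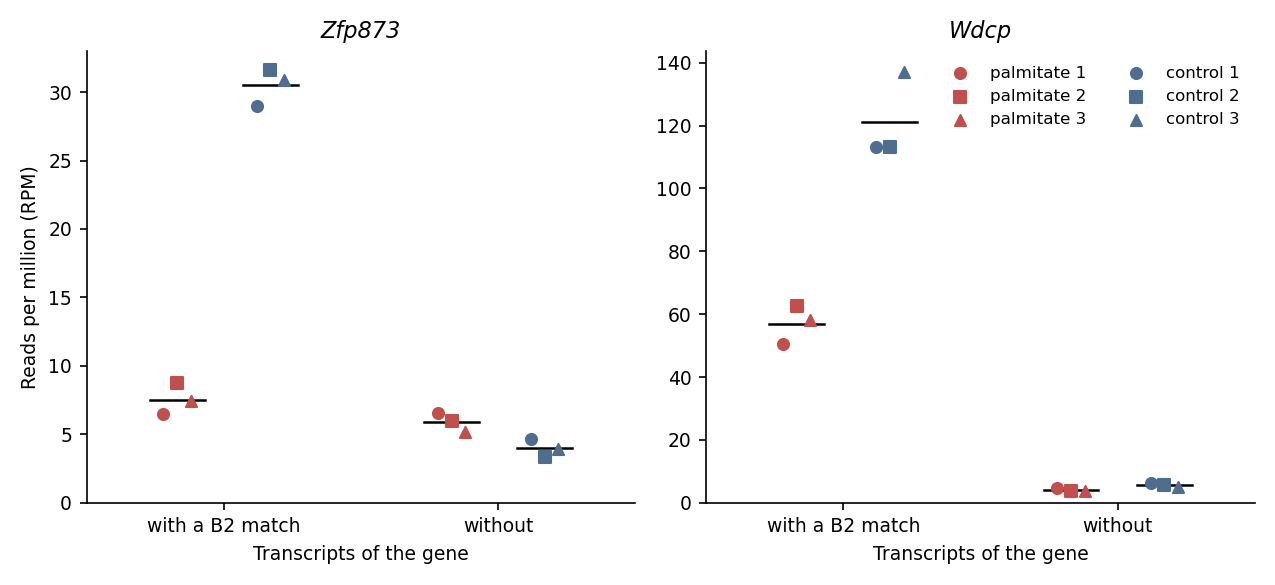
RPM on transcripts with and without a B2 match in Zfp873 and Wdcp, palmitate libraries in red to the left and control libraries in blue to the right; lines are group means. In Zfp873 the repeat-bearing transcript averages 7.54 with palmitate against 30.5 in controls, while the transcripts without it average 5.89 against 3.99.

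Of the 60 annotated transcripts of the 10 genes, 50 were not the main one, and 29 of these had 0 reads in every library. Only 4 of the 50 carried a sense match, 2 in Pramel4 and 2 in Wdcp. In 9 of the 10 genes the main transcript's B2 bases were in no other transcript of the gene, except Pramel4. The stretch was not covered by any other annotated gene in any of the 10. Between 44.8% (Zfp873) and 100% (Pramel4) of the 31-base words in the B2 stretches recur in transcripts of other genes. Outside the stretch, the shares were 0.599% to 24.7% in the 9 genes other than Pramel4. Words outside the stretch also recur in other transcripts of the same gene, from 16.4% in Olfr889 to 98.6% in Pramel4. That share was 70.8% in Zfp873 and 49.2% in Wdcp. Reads from such shared bases fit more than 1 transcript, so the division of a gene's reads among its transcripts is an estimate. The deposited tables give 1 number per transcript, so reads over the B2 stretch and over the rest of a transcript cannot be told apart.

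The same contrast in other genes gives the setting for Zfp873 and Wdcp. In 659 other genes with at least 120 reads on each kind of transcript, the repeat-bearing transcripts had a median log2 fold change of −0.23 and the others 0.08. The repeat-bearing kind was the lower one in 475 genes (72.1%), with a median difference of −0.30. Its share of the gene's reads was lower in every palmitate library than in any control library in 272 of them, or 41.3%, and higher in 20, or 3.03%. In Zfp873 and Wdcp the share was likewise lower in every palmitate library, a direction that, with 41.3% of the other genes, does not set them apart. In size the 2 differed. The log2 fold change in RPM of repeat-bearing and other transcripts was −2.02 and 0.56 in Zfp873, and −1.09 and −0.47 in Wdcp. Where these gaps rank among the 659 genes is not given here.

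By edgeR's test no single transcript passed an adjusted p under 0.05 (0 of 39731), while 6297 had an unadjusted p under 0.05, 3353 of them lower and 2944 higher with palmitate. At a fall of at least 2-fold, with no test, 4.03% of all transcripts were lower. The main transcripts of all 10 genes passed that fold, between −2.19 in Aldh1a3 and −1.17 in Spata31d1a, which follows from how they were selected. Among transcripts of other genes the fold was passed by 19.7% of 1165 with a sense match, 3.52% of 38284 without one and 0.997% of 1003 with an antisense match alone.

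The gene matrix that the authors deposited holds most of these reads for only Aldh1a3 and Pramel4. There Aldh1a3 had 169, 347 and 162 counts with palmitate, against 927, 1305 and 1359 in controls, and Pramel4 had 110, 234 and 116 counts, against 545, 605 and 713. Those are the summed transcript reads rounded. Slc22a17, Vmn2r3, Spata31d1a, Olfr889 and Zfp873 were at 0 in all 6 columns, and Mmp14, Wdcp and Matn2 had under 1% of their transcript reads. So 2 of the 10 entered the matrix test, with log2 fold changes of −2.13 in Aldh1a3 and −1.73 in Pramel4. In that test 11.7% of 12068 genes were called lower.

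Genes other than the 10 were grouped by the match in their main transcript. With a sense match, 239 of 525 (45.5%) were called lower by edgeR with palmitate and 28 (5.33%) higher, with a median log2 fold change of −0.38. Without one, 1521 of 12547 (12.1%) were lower and 1571 (12.5%) higher, with a median of 0.03. With an antisense match alone the values were 29 of 265 lower (10.9%), 22 higher and a median of 0.13. The lower share depended on single libraries: without control library 3 it was 26.4% with a sense match and 4.43% without one, whereas the medians stayed at −0.40 and 0.03.

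**Figure D4:**
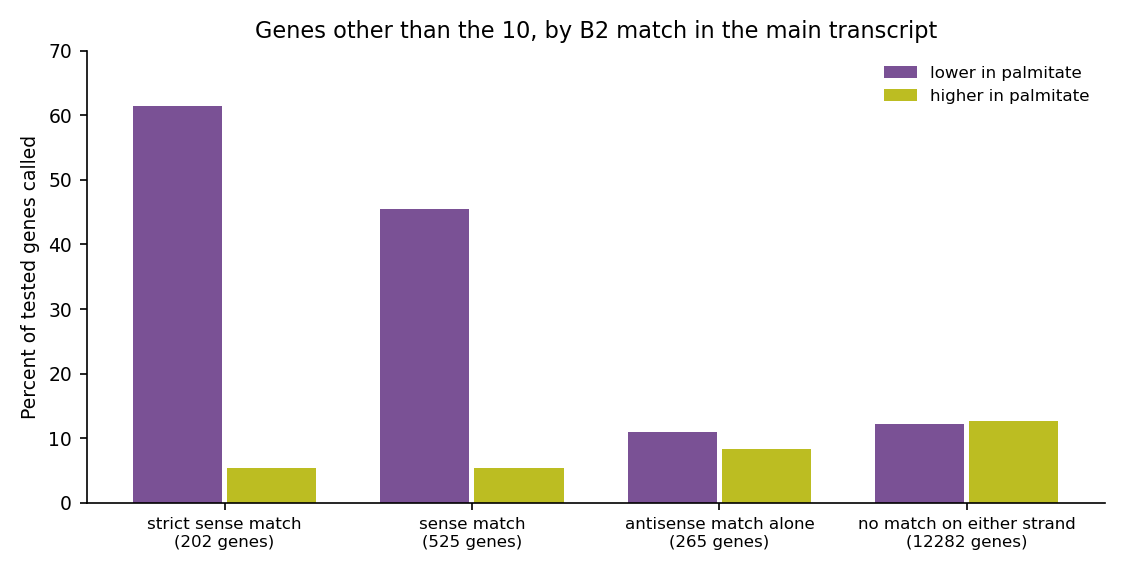
Percent of tested genes other than the 10 that edgeR called lower (purple) or higher (green) with palmitate, by the B2 match in the main transcript; the strict class lies within the sense class. The lower share is 61.4% with a strict match, 45.5% with any sense match and 10.9% with an antisense match alone.

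Longer and closer copies went with more called falls. The share called lower was 52.9% of 395 genes with a match of at least 140 bases and 23.1% of 130 with a shorter one. It was 53.2% of 301 genes at 90% identity or more and 35.3% of 224 below that. With a match within 50 bases of the 3′ end, 73 of 139 genes (52.5%) were lower, against 166 of 386 (43.0%) with a match farther from it. A strict match, of at least 150 bases and 90% identity, gave 124 of 202 (61.4%). These differences between classes were counted and not tested. Among the 10, 8 had at least 90% identity, and the 2 below it were Zfp873 and Pramel4.

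Large called changes also differed by match. The 10 are among 182 genes called and at least 2-fold lower, 1.39% of those tested, and of the other 172, 83 (48.3%) carried a sense match. Of the 344 genes at least 2-fold higher, 2.63% of those tested, 3 did (0.872%). The largest falls with a sense match outside the 10, among genes with a mean log2 CPM of at least 2, included Kcnk4, Ptcra, Alpk2, Lzts1, Rep15, Dennd5b and Chpt1. Kcnk4, a potassium channel gene, averaged 12.7 ± 3.40 CPM with palmitate and 45.6 ± 9.64 CPM in controls (SD, n = 3 each), a log2 fold change of −1.85 (edgeR adjusted p = 0.00373). Chpt1, a cholinephosphotransferase of phosphatidylcholine synthesis, averaged 72.6 ± 11.9 CPM with palmitate and 200.4 ± 31.4 CPM in controls, a log2 fold change of −1.46 (edgeR adjusted p = 0.0014). Ptcra, the pre-T cell receptor alpha chain of developing thymocytes, was lower by −1.73 on the log2 scale, and Alpk2, Lzts1, Rep15 and Dennd5b lay between −1.63 and −1.47. In these 7 genes the match was 90.1% to 94.7% identical to the rebuilt B2, and in all but Dennd5b it ended within 106 bases of the 3′ end.

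All of the 10 but Wdcp were set beside genes of a pathway or family, from lists chosen with earlier results of these data known. Of 14 other retinoid genes tested, 1 was lower and 4 were higher with palmitate, with a median log2 fold change of 0.14 against 0.02 over all genes; the paired fit gave 2 lower and 5 higher. The receptor Rxra rose to 16.5 ± 1.18 CPM with palmitate, against 5.37 ± 1.22 CPM in controls (log2 fold change 1.62, edgeR adjusted p = 0.000889). Rara and Rarg, retinoic acid receptors, rose by 1.08 and 1.07 on the log2 scale. None of these 3 carried a sense match in its main transcript.

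Among 16 other metalloproteinases and inhibitors tested, 2 were lower and 3 higher, with a median of 0.26; in the paired fit 6 were higher. Adamts6 rose by 0.83 and Timp2, an inhibitor of metalloproteinases, by 1.92, while Adamts14 fell by 1.03 on the log2 scale. Adamts14 lost its call in 4 of the 6 fits that left out 1 library. Of 5 matrix protein genes tested, Fn1 (fibronectin) fell to 11.5 ± 1.31 CPM with palmitate, against 21.2 ± 1.52 CPM in controls (log2 fold change −0.87, edgeR adjusted p = 0.00195), and its main transcript carries a sense match 25 bases from its end. Vcan and Fbln1, at under 2 CPM, were called higher. Each lost its call in 5 of the 6 fits that left out 1 library, and also in the fit with length offsets. Of 3 tested genes among the organic ion transporters and lipocalin 2, 0 passed the edgeR test in either direction, and 0 at an unadjusted p under 0.05 or by DESeq2.

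The olfactory receptor family shows both kinds of main transcript in numbers. Of 206 other Olfr genes tested, 10 were lower and 16 higher with palmitate, with a median log2 fold change of 0.27; the higher count was 29 in the paired fit. Split by the repeat, 9 of the 19 with a sense match were lower and 1 was higher, with a median of −0.51. Of the 187 without one, 1 was lower, with a median of 0.31. Olfr95 fell to 3.92 ± 1.101 CPM with palmitate, against 10.5 ± 1.77 CPM in controls (log2 fold change −1.40, edgeR adjusted p = 0.00342), with a copy of 91.3% identity 116 bases from the end. Olfr1423 fell to 16.4 ± 3.27 CPM, against 33.7 ± 3.62 CPM in controls (log2 fold change −1.03, edgeR adjusted p = 0.00305), also with a copy. Olfr1033, without a copy, rose by 0.45 on the log2 scale.

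**Figure D5:**
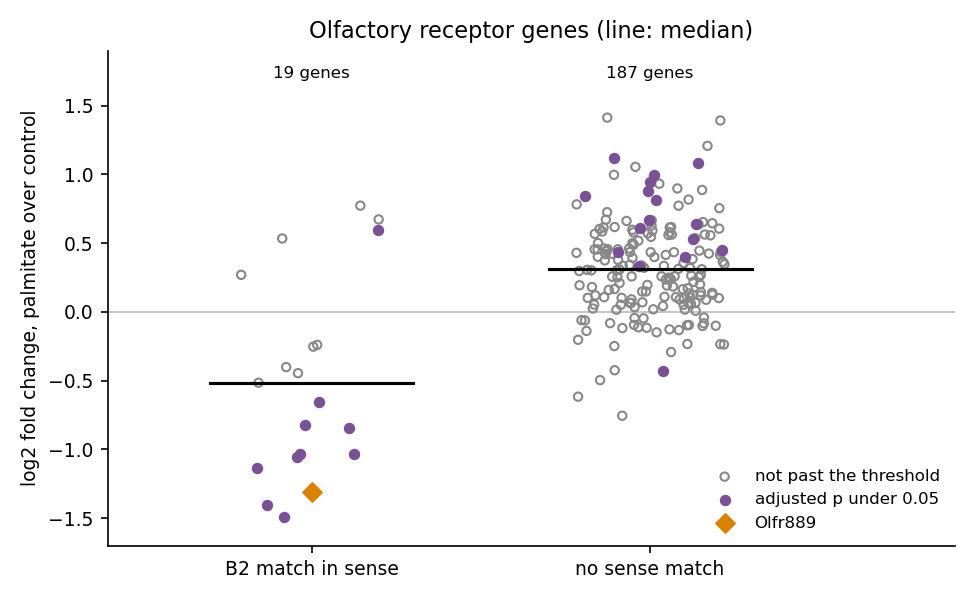
Log2 fold change, palmitate over control, of each tested olfactory receptor gene, by whether the main transcript carries a B2 match in sense; filled points passed an adjusted p under 0.05 in edgeR, lines are medians without Olfr889. The median is −0.51 for 19 genes with a match and 0.31 for 187 without, and Olfr889 lies at −1.31.

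Vmn2r genes other than Vmn2r3 gave 1 lower and 4 higher of 52 tested, with a median log2 fold change of 0.32; the paired fit gave 2 lower and 6 higher. Only 1 of the 52, Vmn2r115, carried a sense match, and its log2 fold change was 0.27. Without a match, Vmn2r53 rose by 0.57 and Vmn2r114 by 0.55 on the log2 scale, while Vmn2r10 fell by 0.72. Vmn2r53 lost its call without control library 3, and Vmn2r114 without that library or without palmitate library 1. Of 3 other genes tested in the Pramel list, 0 passed the edgeR test, with 0 at an unadjusted p under 0.05 and 0 by DESeq2. They were Pramel5 and Pramel7, which averaged under 1 CPM in both groups, and Pramef8, at 45.8 ± 3.91 CPM with palmitate and 45.4 ± 2.05 CPM in controls. No other Spata31 gene had enough reads to be tested. Among 341 other Zfp genes, 21 were lower and 54 higher with palmitate, and 33 were lower and 76 higher in the paired fit. The 19 Zfp genes with a sense match gave 7 lower and 4 higher, with a median of −0.15, against a median of 0.10 in the other 322. Zfp60, with a copy of 95.4% identity, fell to 43.1 ± 4.12 CPM with palmitate, against 83.6 ± 8.32 CPM in controls (log2 fold change −0.95, edgeR adjusted p = 0.00111). Without a match, Zfp629 rose to 5.29 ± 0.613 CPM with palmitate, against 1.72 ± 0.249 CPM in controls (log2 fold change 1.63, edgeR adjusted p = 0.00136), and Zfp36 rose by 0.69 on the log2 scale.

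Genes of RNA polymerase III, of its factors and of proteins known to bind B2 RNA were read as a list of 34, all tested. With palmitate 5 were lower and 3 higher, with a median log2 fold change of −0.05. Maf1, a repressor of RNA polymerase III, rose to 54.4 ± 0.693 CPM with palmitate, against 36.3 ± 4.32 CPM in controls (log2 fold change 0.59, edgeR adjusted p = 0.00368). The subunit gene Polr3c rose by 0.38 and Polr3f fell by 0.38 on the log2 scale, and Polr3f lost its call without control library 3 or without palmitate library 2. The list thus moved in both directions and by under 1 on the log2 scale in the genes named. Free B2 RNA was not analysed here.

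Most markers of the tissues where the 10 genes are better known averaged under 1 CPM. Of 8 markers of fibroblasts and stroma, 7 averaged under 1 CPM over all 6 libraries, although Lum averaged 1.04 ± 1.49 CPM in controls. The sum of the 8, 339 to 385 CPM with palmitate and 407 to 423 CPM in controls, was almost wholly Thy1, which mouse T cells express. The 5 epithelial markers summed to 4.35 to 5.56 CPM with palmitate and 4.84 to 7.98 CPM in controls, mostly Epcam, with Krt8 at 0. The 7 pancreatic acinar markers summed to 1.41 to 2.40 CPM and 1.26 to 1.92 CPM, with Amy2a1 and Pnlip at 0. The 6 markers of macrophages and monocytes summed to 3.92 to 4.67 CPM with palmitate and 2.46 to 4.57 CPM in controls.

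The 6 markers of olfactory and vomeronasal neurons summed to 21.2 to 23.4 CPM with palmitate and 16.3 to 19.6 CPM in controls, nearly all Adcy3, with Cnga2 and Trpc2 at 0. The 6 germ line markers summed to 0.424 to 0.472 CPM with palmitate and 0.661 to 0.879 CPM in controls, with Tnp1 at 0. The 6 B cell markers summed to 227 to 248 CPM with palmitate and 156 to 218 CPM in controls, mostly Ighm, and 1 of them was called higher. By edgeR's test 0 of the stromal, epithelial, acinar, macrophage and olfactory markers tested were lower with palmitate. No germ line marker had enough reads to be tested, and their sum was lower in every palmitate library than in any control library. At an unadjusted p under 0.05, 1 stromal and 1 epithelial marker were lower, and DESeq2 called the stromal one, Thy1. Few markers of these tissues had enough reads to be tested, with 2 epithelial, 2 acinar, 2 macrophage, 2 olfactory and 1 stromal. Spata31d1a, of a family known from the germ line, averaged 19.8 ± 3.74 CPM with palmitate and 43.6 ± 4.29 CPM in controls. Which cells its reads came from was not tested.

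The genes whose log2 CPM followed the mean of the 10 most closely over the 6 libraries were Iqcb1, Ak6, Loxl2, Rrn3 and Acp6, with Pearson correlations of 0.999 to 1.00. These values are a description over 6 libraries that mostly reflects the distance between groups. Iqcb1, Loxl2 and Acp6 carry a sense match and fell by 1.13, 1.43 and 1.18 on the log2 scale. Ak6 and Rrn3 carry none and fell by 0.43 and 0.38. Of the 100 genes most like the 10, 43 carried a sense match, against 3.78% of the 9697 genes ranked. The 10 were chosen for their fall and their repeat, so genes like their mean tend to be falling ones. Called falls were more common among genes with a match, and the ranked genes also include those that rose or stayed level. The higher share is thus no separate result. Likeness to the mean was 0.978 (Matn2) to 0.998 (Slc22a17) for the 10 themselves, which are part of that mean.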

How the data were processed

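RNA of CD8+ T cells was measured in 3 palmitate and 3 control libraries. Per the submitters' processing notes, the tools were Salmon 1.10.0, Trim Galore 0.6.10 and DESeq 1.42.0, and the build was GRCm39. The authors deposited a table per library with estimated (expected) counts and TPM per transcript, and a matrix of estimated counts per gene, all of them whole numbers. No column was left unused (0). Transcripts were mapped to genes with GENCODE M21, an earlier build, so no genome coordinates are printed: 114808 of 116224 transcripts (98.8%), with 99.4% to 99.5% of the reads, had a gene, and 0 entries of the matrix named no gene. Reads were summed per gene and rounded.

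edgeR 4.0.16 (TMM, filterByExpr, robust quasi-likelihood, Benjamini-Hochberg) was fitted to all genes or transcripts, with DESeq2 1.42.0 as an alternative, and was tested on simulated data. A B2 sequence was rebuilt by taking the most common base at each position around an A box and a B box, 34 bases apart, with chromosome 18 left out. The agreement it had to keep at its ends was set at 0.5 after a stricter value had left Pramel4 without a match. Matches were found with BLAST 2.17.0 (at least 80 bases and 80% identity). The main transcript is the one with most reads over all libraries. Depth was 16724588 to 29362276 counts per library in the matrix; a value near 10 reads has little precision.

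The 10 genes, the lists and the tests were chosen with earlier results of these data known. Genes named besides the 10 were the 3 smallest p-values per list, the 8 largest called falls with a sense match (1 of them is not reported here) and the 5 genes most like the 10. Same-numbered libraries deviated together (correlations of deviations from the group means 0.325, 0.210 and 0.186, against −0.244 to 0.0626 for other pairs), so the numbers were treated as pairs in the alternative fit. Fits with the block, with another scaling or filter, with length offsets and without each library are described in the closing section.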

Additional observations from a re-analysis of the deposited data

How the results depend on the processing

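The log2 fold changes of the 10 genes stayed negative in all 130 values from 13 alternative fits, between −2.44 and −1.01; 1 moved beyond the libraries' spread, Zfp873 at −1.59 with length offsets. With the replicate block, the paired fit, the genes called in the summed reads were 5064 against 3369, and it changed no call of a gene named here. Leaving out 1 library gave 1306 to 4186 called genes in the summed reads, 690 to 3433 in the matrix, 36 to 153 over the lists (127 with all libraries), 26.4% to 47.3% lower among other genes with a sense match, and a within-gene median difference of −0.37 to −0.30. For single transcripts, where 0 were called, a mean of at least 1 CPM gave 319, no filter 225 and upper-quartile scaling 210. An antisense match alone gave 10.9% lower among other genes, against 45.5% with a sense match. Within genes, any antisense match, also beside a sense match, turned the median difference to 0.23, and a strict sense match gave −0.68. The cause was not tested. Of 440 values for 34 other named genes, 419 kept their call, 21 did not and 0 turned. Depth limits the transcripts without the repeat, which had enough reads in 2 of the 10 genes.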

Other observations

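A sense match did not go with a fall in every gene. Prr5l, Rasgrp3 and Scml4, named after their values were seen, are the 3 genes called at least 2-fold higher with a sense match in the main transcript. Scml4 averaged 29.2 ± 4.16 CPM with palmitate and 13.7 ± 2.58 CPM in controls (SD, n = 3 each), a log2 fold change of 1.097 (edgeR adjusted p = 0.00255), and its copy of 150 bases at 88.7% identity ends 47 bases from the 3′ end. Prr5l, which encodes a partner of the mTOR complex, averaged 3.74 ± 1.00 CPM with palmitate and 1.53 ± 0.236 CPM in controls, a log2 fold change of 1.30 (edgeR adjusted p = 0.0067), with a copy at 92.7% identity. Rasgrp3 was at under 1 CPM in both groups.

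Transcripts with an antisense match differed from the others of their gene in the opposite direction. In 727 other genes with at least 120 reads on each kind, those with an antisense match had a median log2 fold change of 0.28 and the others 0.02, and the bearing kind was the lower one in 24.6%. Its share of the gene's reads was higher in every palmitate library than in any control library in 102 genes (14.0%) and lower in 42 (5.78%). Transcripts with a sense match were not left out of either kind, and their part in the difference was not tested. The difference was counted and not tested.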
